A study of Schizosaccharomyces pombe with 21 samples.

Results

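The cytosolic small ribosomal subunit (40S) of the fission yeast Schizosaccharomyces pombe is encoded by 55 protein-coding genes whose standard symbol is rps followed by a number. They were found by matching the 6988 gene identifiers shared by both count tables to the reference annotation, and the mitochondrially encoded rps3 was left out. All 55 were among the 6234 genes that passed the filter on low counts. They encode 31 proteins: 8 proteins have 1 gene, 22 have 2 genes and the S4 protein has 3.

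PolyA RNA was sequenced from 21 libraries, 3 in each of 7 groups, and the labels call the 3 biological replicates. The wild type (WT) is strain Sp1 and HASX is strain BS1453, both of mating type h-. HASX carries 4 alleles, asp1-H397A::natMX, aps1∆::kanMX, siw14∆::hygMX and spx1∆::ura4MX. Asp1 makes and breaks down inositol pyrophosphates, Aps1 and Siw14 break them down, and Spx1 has a domain that binds them. Vegetative log phase cultures grew at 30 °C in phosphate-replete medium (ePMGT(+PO4)) and were moved to ePMGT(–PO4), the same medium with no phosphate, for 1, 2 or 4 h. The WT was also taken at 0 h, in the replete medium. HASX before the transfer, and WT moved to fresh replete medium, were not analysed here. A difference between HASX and WT at 1 h could therefore have been present before the transfer, and the effect of the transfer cannot be told apart from that of the phosphate.

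Each 40S subunit holds 1 molecule of most of these proteins, so a growing cell needs them in nearly equal numbers. Ribosomal protein mRNAs are among the most abundant in dividing yeast, and yeasts lower them together when nutrients run short. In fission yeast most of these genes are read from promoters that carry short shared elements, HomolD and HomolE. Many of the proteins have paralogs, copies of 1 gene that encode nearly the same protein, and the cell can draw on either copy.

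Stretches upstream of the annotated gene starts are shown for the 4 proteins whose paralogs diverged most in these data, and for 3 genes that kept the highest share of their WT level in HASX at 4 h. They come from the RefSeq genome ASM294v3, matched by gene identifier and read 5′ to 3′ toward the gene, with HomolD (CAGTCACA) and HomolE (ACCCT, 2 copies in a row) in capitals on either strand. Each stretch ends at the base before the gene start unless stated. Where another protein-coding gene is annotated within 60 bases upstream, only 30 bases around the element are given.
rps801: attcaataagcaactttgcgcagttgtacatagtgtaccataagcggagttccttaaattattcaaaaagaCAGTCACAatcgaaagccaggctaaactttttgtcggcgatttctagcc
rps802: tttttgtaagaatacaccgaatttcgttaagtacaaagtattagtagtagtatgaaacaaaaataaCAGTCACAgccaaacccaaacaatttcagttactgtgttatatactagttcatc
rps2601: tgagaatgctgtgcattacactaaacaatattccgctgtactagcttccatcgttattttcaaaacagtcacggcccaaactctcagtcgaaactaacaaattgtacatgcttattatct
rps2602: gacccaaaaagCAGTCACAtcacaatttag
rps1401: ccaagcttaaACCCTACCCTaaattgactg
rps1402: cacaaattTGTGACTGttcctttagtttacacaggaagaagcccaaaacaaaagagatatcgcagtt
rps1501: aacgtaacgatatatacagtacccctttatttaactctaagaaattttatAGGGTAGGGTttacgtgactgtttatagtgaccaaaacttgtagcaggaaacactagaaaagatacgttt
rps1502: tacgaaaaagaCAGTCACAacgtttcaaga
rps27: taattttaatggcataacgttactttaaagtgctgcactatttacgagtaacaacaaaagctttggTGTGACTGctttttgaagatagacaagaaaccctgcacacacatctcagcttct
rps3001: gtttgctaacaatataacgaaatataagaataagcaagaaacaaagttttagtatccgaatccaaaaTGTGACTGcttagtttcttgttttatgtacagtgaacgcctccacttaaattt
rps3002: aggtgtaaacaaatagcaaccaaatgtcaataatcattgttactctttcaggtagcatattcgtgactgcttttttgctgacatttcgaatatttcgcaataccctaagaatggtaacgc

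On ASM294v3 the rps801 stretch lies at chrI:4287433-4287552 on the minus strand and the rps802 stretch at chrI:849363-849482 on the plus strand. The rps2601 stretch is chrI:236028-236147, minus strand, and that of rps2602, which covers bases 63 to 34 before the gene start, is chrI:2793518-2793547, minus strand. The rps1401 stretch covers bases 78 to 49 before the start, at chrI:3436166-3436195 on the plus strand. The rps1402 stretch at chrII:1792296-1792362, plus strand, fills the 67 bases between rps1402 and the divergently transcribed large subunit gene rpl701. The rps1501 stretch is chrIII:798124-798243, plus strand, and that of rps1502, bases 55 to 26 before the start, is chrI:3869004-3869033, minus strand. The last 3 lie at chrII:517201-517320 (plus), chrI:4890200-4890319 (plus) and chrII:2349452-2349571 (minus). The deposited counts were made on the earlier build ASM294v2, per the submitters' processing notes, and no coordinate was carried between builds.

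HomolD stood within 250 bases upstream of 34 of the 55 genes (61.8%), against 65.1% of the large subunit genes and 0.925% of all other protein-coding genes. All 34 had their nearest match within 100 bases of the gene start. HomolE stood upstream of 21 genes (38.2%), against 24.1% of the large subunit genes and 0.422% of the others. Both elements occurred at 10 genes, HomolD alone at 24, HomolE alone at 11 and neither at 10, and no HomolD match overlapped a HomolE match. The letters CAGTCACG, which differ from HomolD in the last base, were searched after the stretches above were read. They occur upstream of 10 of the 21 genes with no exact HomolD, rps2601, rps1501 and rps3002 among them, and of 1.19% of all protein-coding genes. Some upstream windows run into a neighbouring gene, and a match of letters is not a measured binding site.

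Paralogs of 1 protein are much alike in their coding sequence, which bears on how reads were given to each. The first 60 coding bases of 3 pairs show how far, with the bases that differ between the 2 paralogs in capitals.
rps801: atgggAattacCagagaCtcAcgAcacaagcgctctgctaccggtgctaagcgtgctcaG
rps802: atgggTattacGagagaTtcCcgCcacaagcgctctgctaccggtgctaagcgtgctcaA
rps2601: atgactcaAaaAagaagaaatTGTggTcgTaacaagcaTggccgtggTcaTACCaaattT
rps2602: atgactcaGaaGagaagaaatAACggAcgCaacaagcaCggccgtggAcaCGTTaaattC
rps1401: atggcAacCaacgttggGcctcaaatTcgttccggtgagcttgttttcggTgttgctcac
rps1402: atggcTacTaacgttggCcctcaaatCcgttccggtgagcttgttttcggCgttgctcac

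Over the whole coding sequence the identity was 74.3% for rps1201 and rps1202, the least alike pair, and 93.6% for rps1401 and rps1402. The longest stretch of identical bases was 101 in rps1401 and rps1402, 62 in rps801 and rps802 and 14 in rps2601 and rps2602. How the authors' counting treated reads that fit both paralogs, and its strand setting, are not given in the sources used here, so counts of the most alike pairs carry that uncertainty.

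The libraries held 11235668 to 23680823 counts on genes. Levels below are counts scaled to a common total (CPM) after trimmed-mean (TMM) scaling, and a level per coding kb is the CPM divided by the coding length in kb. A gene was called changed at a Benjamini-Hochberg adjusted p under 0.05 over all 6234 genes in edgeR's quasi-likelihood test. The common biological coefficient of variation was 0.212. After TMM scaling these CPM are relative levels and not exact shares of the counts. A lower level could mean fewer transcripts per cell or more of other transcripts, and these cannot be told apart. The library labelled HASX 4 h replicate 3 stood apart, with correlations of log2 CPM down to 0.893 with its replicates, against 0.985 between the other two. It also held 69.6 CPM of siw14, a deleted gene, and 306 CPM of asp1, while the lowest HASX 4 h values were 1.77 and 83.4 CPM. HASX 4 h counts, fold changes, ratio changes, gene lists and ranges below were also computed without it, and a selection of those values is given beside the results. The deleted genes aps1 and spx1, the latter listed under its RefSeq name pqr1, were low but not at 0 in HASX. There aps1 had 3.2 to 15.3 CPM, against 156 to 215 CPM in the WT, and pqr1 had 43.3 to 99.6 CPM, against 232 to 343 CPM.

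In the WT the summed level of the 55 genes stayed near its starting level for 2 h of starvation and fell by 4 h. It was 63297, 69383 and 79824 CPM in the 3 libraries at 0 h, 71160, 69501 and 72829 at 1 h, and 82420, 72358 and 61935 at 2 h. At 4 h it was 27813, 25998 and 27098 CPM, 38.1% of the 0 h mean. In CPM the groups at 0, 1 and 2 h overlapped, and every 4 h library lay below all of them. As shares of raw counts, every 2 h library (7.4%, 7.34% and 6.95%) lay below every 0 h library (7.45%, 7.58% and 7.71%).

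In HASX the sum was already low at the first time sampled. It was 10449, 11853 and 10621 CPM at 1 h, 8366, 9690 and 9807 at 2 h, and 7957, 7233 and 6405 at 4 h. The HASX means were 10975 ± 766, 9288 ± 801 and 7198 ± 776 CPM (SD, n = 3), which were 15.5%, 13.1% and 10.2% of the WT 0 h mean. Against the WT at the same time they were 6.48-, 7.78- and 3.75-fold lower, and no HASX library reached the lowest WT library of any time. As a share of raw counts the 55 genes took 6.95% to 7.93% of each WT library up to 2 h and 2.82% to 3.11% at 4 h. In HASX they took 1.13%, 1.15% and 1.03% at 1 h and 0.836%, 0.922% and 0.939% at 2 h. At 4 h they took 0.588%, 0.58% and 0.535%. The TMM factors at 4 h were 0.739 to 0.837 in HASX and 1.08 to 1.12 in the WT. In raw shares the gap at 4 h was therefore wider than 3.75-fold, and the HASX fall after 1 h was deeper than in CPM.

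**Figure D1:**
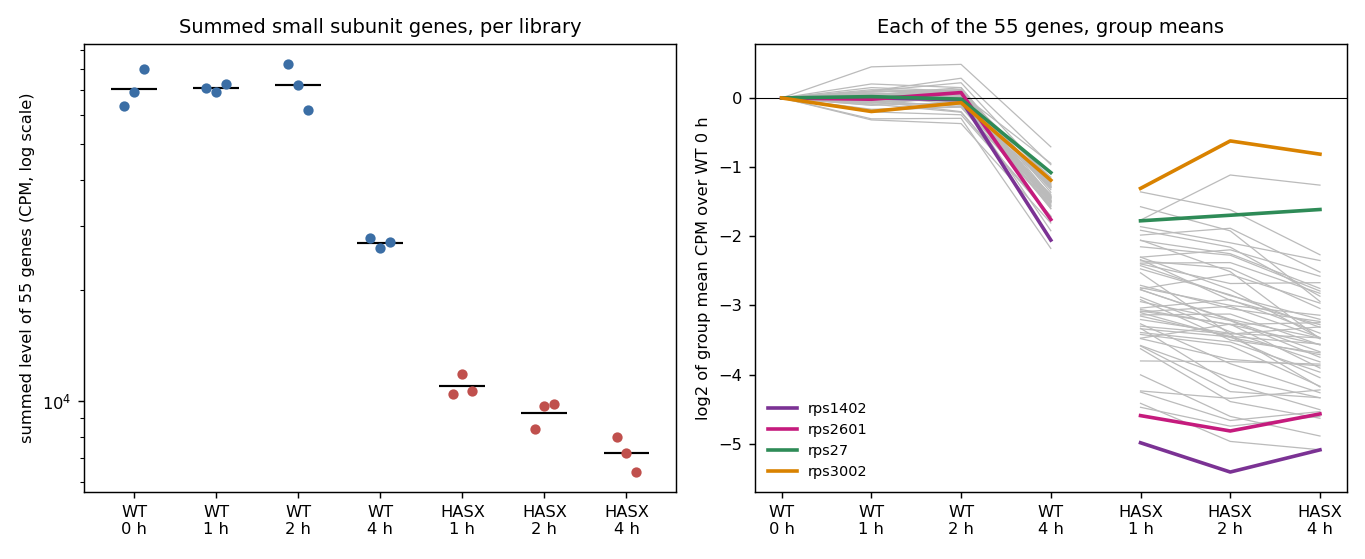
Left, the summed CPM of the 55 small subunit genes in each library (points, log axis) with the group mean (bar). Right, the log2 of each gene's group mean over its WT 0 h mean (grey lines, 4 genes in colour). The WT sums at 0 to 2 h overlap, the WT 4 h and all HASX sums lie below them, and the genes fan out in HASX, from rps3002 at the top to rps1402 at the bottom.

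After 1 h of starvation the WT genes stayed near their starting level. Of the 55, 1 rose and 1 fell, beside 4.27% of all genes higher and 5.02% lower, and the median log2 fold change was 0.00, that of all genes also being 0. The gene that rose was rps1401, 1 of 2 genes for S14, a protein of the 40S platform, with a log2 fold change of 0.45 ± 0.13 (SE, adjusted p = 0.0299). Its levels were 327, 369 and 437 CPM at 0 h and 510, 512 and 524 CPM at 1 h, with no overlap. The one that fell was rps2402, for S24, with -0.32 (adjusted p = 0.0468). At an unadjusted p under 0.05 there was 1 gene higher and 2 lower, and DESeq2 called 1 each way.

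At 2 h rps1401 was again higher than at 0 h, by 0.49, and rps2402 (-0.37) and rps2501 (-0.29, adjusted p = 0.0463), for S25, were lower. Over all genes 10.9% were higher and 6.66% lower, and the median of the 55 was 0.02. Other genes named here, none of them called, were rps2501 (-0.30) at 1 h, rps2401 (-0.20 at 1 h and -0.24 at 2 h), rps1202 (0.20) and rps1102 (0.15) at 1 h, and rps2202 (0.29) at 2 h. These single calls at 1 and 2 h came and went with the choice of replicates and settings.

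At 4 h all 55 genes were lower in the WT than at 0 h, beside 25% of all genes lower and 26.5% higher. The median log2 fold change was -1.45, that of all genes 0.01, and that of the 83 large subunit genes -1.54, all of which were lower. The fall ran from -0.71 to -2.17. It was deepest for rps2501 (-2.17 ± 0.10), which went from 282, 240 and 224 CPM to 55.9, 51.7 and 57.7 CPM. Next came rps1402 (-2.06), the other S14 gene, and rps1502 (-1.92), for S15, a protein of the head of the subunit. The smallest falls were those of rps1401 (-0.71 ± 0.13), rps13 (-0.95), the single gene for S13, and rps2202 (-0.97), for S22.

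Against the WT at the same time, all 55 genes were lower in HASX at 1 h, beside 37.8% of all genes lower and 36.4% higher. The median log2 fold change was -2.96, a 7.79-fold lower level, while the median of all genes was -0.01. The large subunit genes had a median of -3.07, and all 83 were lower. The range over the 55 was wide, from -1.11 to -4.99.

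The deepest fall was that of rps1402. It stood at 1091, 1114 and 1132 CPM in the WT at 1 h and at 33.6, 40.8 and 30.7 CPM in HASX, a 31.8-fold difference (log2 -4.99 ± 0.21, adjusted p = 5.88e-14). Its paralog rps1401 went from 510, 512 and 524 CPM to 65.5, 71.3 and 59 CPM, 7.9-fold lower. The higher S14 gene of the WT was thus the lower one in every HASX library at 1 h.

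Next was rps2601, 1 of 2 genes for S26, a protein at the exit of the mRNA channel, with 557, 531 and 565 CPM in the WT and 22.5, 22.1 and 24.6 CPM in HASX (log2 -4.58 ± 0.14). The gene rps1701, for S17, followed with -4.43 ± 0.14. At the other end stood rps3002, 1 of 2 genes for S30, which animals make as a fusion to a ubiquitin-like protein. It had 234, 204 and 242 CPM in the WT and 117, 103 and 95.3 CPM in HASX, 2.16-fold lower (log2 -1.11 ± 0.10). The groups did not overlap even for this gene. Another small fall was that of rps13 (-1.39).

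**Figure D2:**
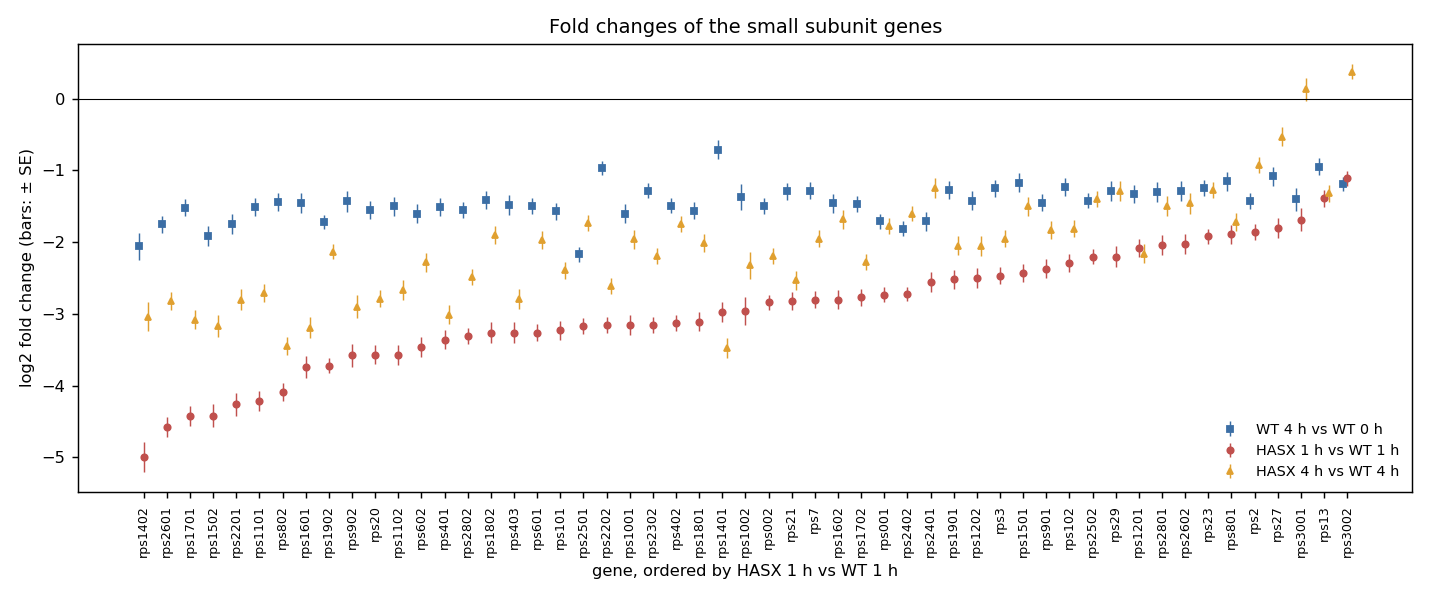
The log2 fold change (y axis, bars ± SE) of the small subunit genes, 1 paralog pair left out (x axis, ordered by HASX 1 h vs WT 1 h) in 3 comparisons, drawn as squares, circles and triangles. WT 4 h vs WT 0 h lies between -2.17 and -0.71, HASX 1 h vs WT 1 h spreads from -4.99 to -1.11, and at 4 h only rps3001 and rps3002 lie above 0.

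At 2 h all 55 were again lower in HASX, beside 39.3% of all genes lower and 37.5% higher, with a median of -3.17 (8.99-fold). The lowest were rps1402 (-5.38, 41.6-fold), rps1502 (-4.95) and rps2601 (-4.89). The smallest differences were those of rps3002 (-0.55 ± 0.10), rps3001 (-1.02) and, level with each other at -1.68, rps13 and rps27, the single gene for S27.

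By 4 h, when the WT itself had fallen, 53 of the 55 were lower in HASX, 1 was higher and 1 was not called, beside 37.3% of all genes lower and 38.3% higher. The median was -2.05 (4.14-fold), and 53 lower and 1 higher were also found without HASX 4 h replicate 3. The lowest were rps1401 (-3.48 ± 0.14), rps802 (-3.45) and rps1601 (-3.19), for the proteins S14, S8 and S16. The gene that was higher was rps3002, with 118, 105 and 119 CPM in the WT and 150, 161 and 134 CPM in HASX (log2 0.38 ± 0.10, adjusted p = 0.00215; 0.48 without that library). The gene not called was its paralog rps3001 (0.13 ± 0.16, adjusted p = 0.455), with 154, 132 and 148 CPM in the WT and 167, 173 and 136 CPM in HASX, which overlap. The third highest was rps27 (-0.53, adjusted p = 0.00138).

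The change from 1 h to 4 h differed between the genotypes. In the WT all 55 genes fell over these hours, beside 19.9% of all genes lower and 24.4% higher, with a median of -1.46. The falls ran from -0.98 for rps13, -0.99 for rps3002 and -1.07 for rps2202 to -1.87 for rps2501, -1.92 for rps1502 and -2.06 for rps1402. In HASX, from its low level at 1 h, 40 genes fell further, 2 rose and 13 were not called, beside 19.2% lower and 25.6% higher over all genes, with a median of -0.57 (38 lower, 2 higher and a median of -0.47 without HASX 4 h replicate 3). The 2 that rose were rps3001 (0.50 ± 0.16, adjusted p = 0.016, and up to 0.0785 over the alternatives) and rps3002 (0.50 ± 0.10, adjusted p = 0.000595). The largest further falls were those of rps1401 (-1.65) and rps1201 (-1.43), for S12.

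The test of the difference itself, the HASX change minus the WT change, called 46 genes higher and 1 lower, beside 22.4% and 21.7% of all genes. The median was 0.85, against 0.07 for all genes, and 49 genes were higher and 0 lower without HASX 4 h replicate 3. With DESeq2 size factors the median was 0.88, but the size of the difference depends on the scaling. As raw shares of counts, the summed genes fell in HASX from 1.13%, 1.15% and 1.03% to 0.588%, 0.58% and 0.535%. In the WT they fell from 7.72%, 7.48% and 7.93% to 3.11%, 2.82% and 3.02%, so the genotypes differed less on that measure. The tested difference was highest for rps1402 (1.96 ± 0.26), which fell in the WT from 1091, 1114 and 1132 CPM at 1 h to 279, 250 and 273 CPM at 4 h. In HASX it stood at 37.5, 34.7 and 25.7 CPM at 4 h, overlapping its 1 h values. Next were rps3001 (1.82) and rps2601 (1.76). The gene called lower was rps1401 (-0.50, adjusted p = 0.0359, and up to 0.0895 over the alternatives), which fell less in the WT than in HASX. Without HASX 4 h replicate 3 it was -0.34 (adjusted p = 0.0825). For rps1201 (-0.08) the difference was not called.

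**Figure D3:**
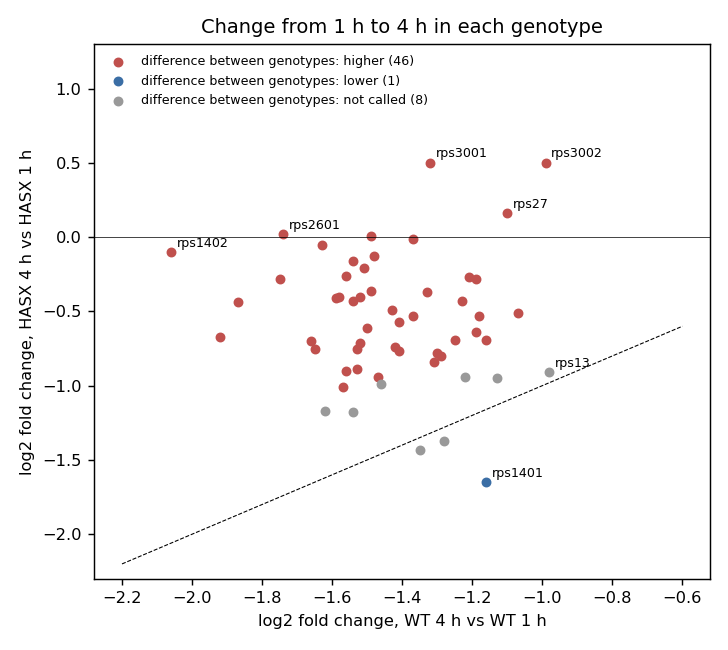
Each point is 1 of the 55 genes, with its log2 fold change from 1 h to 4 h in the WT (x axis) and in HASX (y axis). The dashed line marks equal change and colours mark the tested difference between the genotypes. All points lie left of 0 on the x axis, 46 are called higher above the dashed line, and rps1401 is called lower below it.

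The levels of the 55 genes were less alike in HASX than in the WT. The SD of their log2 levels per coding kb was 0.76 in the WT at 0 h and 0.85 at 4 h, and 1.18, 1.26 and 1.19 in HASX at 1, 2 and 4 h. Per coding kb, the highest WT 0 h gene was rps27 (7589 CPM per coding kb) and the lowest rps1002 (806), for S10, a 9.41-fold range. The range was 17.4-fold in the WT at 4 h and 34.8-, 43- and 50-fold in HASX at 1, 2 and 4 h, with rps27 at the top in every group. Per coding kb, the lowest gene was rps2501 in the WT from 1 h on, rps2601 in HASX at 1 and 2 h and rps1401 in HASX at 4 h. In CPM without that division the range was 13.5-fold at WT 0 h and 26-fold at WT 4 h. In HASX it was 31.7-, 30.9- and 37.7-fold. The rps27 coding sequence has 252 bases. In CPM rps102 was above rps27 at WT 0 h (3367 against 1912) and in HASX at 1 h (658 against 558). It was below rps27 in HASX at 4 h (408 against 625). The rank order of the 55 levels kept a correlation with that at WT 0 h of 0.96 in the WT at 4 h, and of 0.68, 0.59 and 0.65 in HASX at 1, 2 and 4 h. Without HASX 4 h replicate 3 the range per coding kb in HASX at 4 h was 48.1-fold, the SD 1.19 and the rank correlation 0.65. These are descriptions over 55 genes that share their libraries.

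Summing the paralogs of each protein narrowed the range. At WT 0 h the 31 proteins spanned a 4.39-fold range per coding kb, from S2, a single gene (1754), to S16 (7704). In the WT at 4 h the range was 5.52-fold. In HASX it was 9.28-, 16- and 19.5-fold (18.6-fold at 4 h without HASX 4 h replicate 3), with S27 at the top (2214, 2342 and 2480) and S14 at the bottom (239, 146 and 127). Summed S30 transcripts stood at 1390 CPM per coding kb in the WT at 4 h and 1651 in HASX, and summed S14 transcripts at 1187 and 127.

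Genes that fell more in the starved WT also tended to be those that were lower in HASX. Over the 55 genes, the log2 fold changes of WT 4 h vs WT 0 h and of HASX 1 h vs WT 1 h, which share no library, had a Pearson r of 0.59 and a Spearman rho of 0.67. The HASX differences at 1 h and 2 h had r = 0.96, and those at 1 h and 4 h r = 0.81. The changes from 1 h to 4 h in the WT and in HASX had r = -0.08.

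S6 is the substrate of the S6 kinases, which act below the TOR pathway. At 1 h, rps601 stood at 2809, 2684 and 2895 CPM in the WT and 276, 315 and 285 CPM in HASX (log2 -3.26 ± 0.12), and rps602 at 1487, 1485 and 1590 CPM and 132, 154 and 129 CPM (-3.46 ± 0.14). Both also fell in the WT by 4 h, by 1.5 and 1.60 on the log2 scale. At 4 h both were lower in HASX, with log2 fold changes of -1.97 and -2.28. From 1 h to 4 h in HASX, rps602 fell (-0.40, adjusted p = 0.0136, and -0.29 with adjusted p = 0.0507 without HASX 4 h replicate 3) and rps601 was not called (-0.26).

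Paralogs of 1 protein often moved by different amounts. Their log2 ratio within each library, which does not depend on the scaling of libraries, was tested with limma over all 66 paralog pairs of both subunits. In the WT at 4 h against 0 h, 13 of the 25 small subunit pairs changed, beside 59.1% of all 66 pairs. In HASX against the WT, 21 changed at 1 h (80.3% of all pairs), 24 at 2 h (90.9%) and 20 at 4 h (89.4%, and 21 pairs without HASX 4 h replicate 3). The median size of the change was 0.19 in the starved WT and 0.95, 0.91 and 0.43 in HASX at 1, 2 and 4 h. It was over 1, a 2-fold change of the ratio, in 1, 11, 11 and 8 pairs. Among the 41 large subunit pairs it was over 1 in 4, 19, 20 and 18, with medians of 0.33, 0.73, 0.99 and 0.82.

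**Figure D4:**
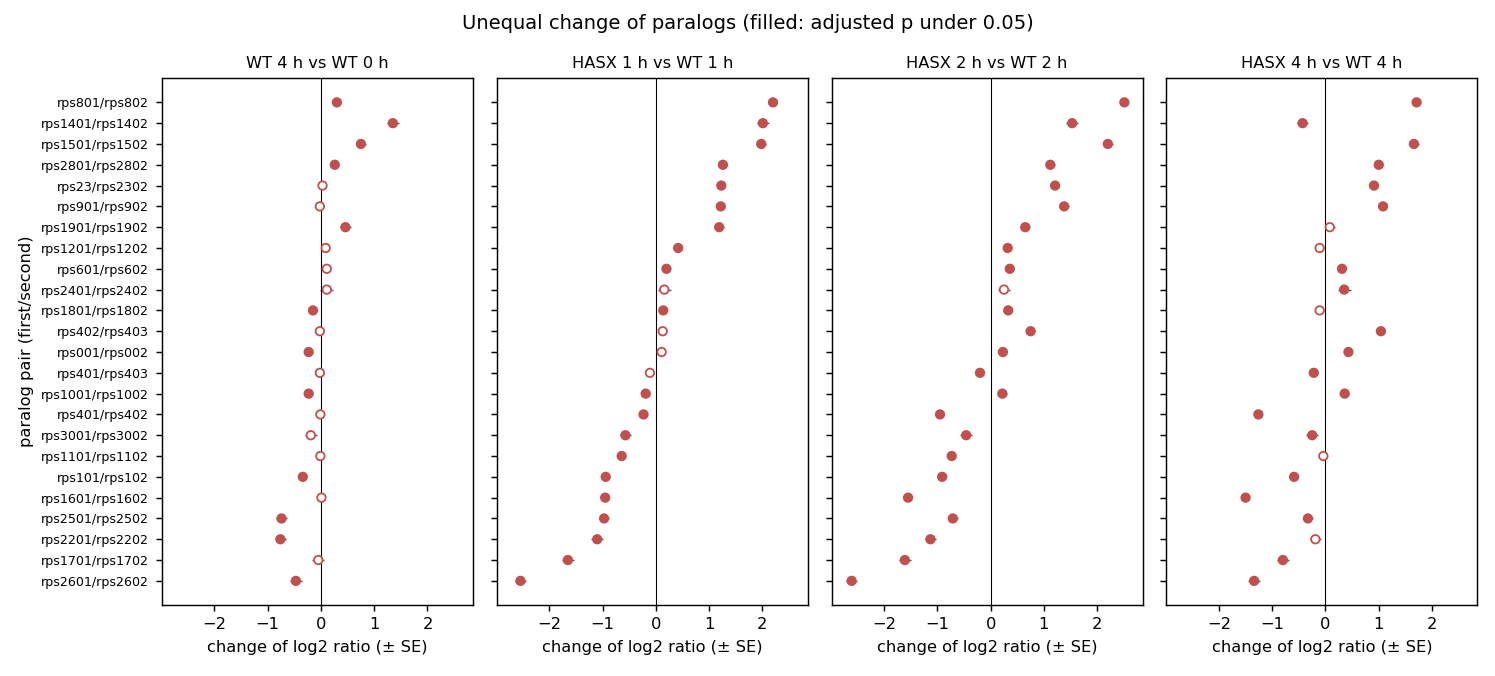
The change of the log2 ratio of the first to the second paralog (x axis, bars ± SE) for the small subunit pairs, 1 left out (y axis) in 4 comparisons. Filled points have an adjusted p under 0.05. Points spread farther from 0 in the 3 HASX panels, with rps801/rps802 at the right end. At the left end stands rps2601/rps2602 at 1 and 2 h and rps1601/rps1602 at 4 h.

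The S26 pair diverged most in HASX at 1 and 2 h. The gene rps2601 supplied 28.4% ± 0.76 of the pair's CPM in the WT at 0 h and 22.3% ± 0.4 at 4 h, and 6.49% ± 1.1, 6.27% ± 0.84 and 10.2% ± 0.71 in HASX at 1, 2 and 4 h (SD, n = 3). The ratio to rps2602 fell by 2.54 ± 0.11 on the log2 scale in HASX at 1 h (adjusted p = 8.44e-14 in limma), by 2.61 at 2 h and by 1.34 at 4 h. While rps2601 fell to about 23.1 CPM in HASX at 1 h, rps2602 went from 1368, 1354 and 1386 CPM in the WT to 313, 395 and 306 CPM. This was the pair with the shortest identical coding stretch, 14 bases. The exact HomolD was found upstream of rps2602 and not of rps2601, which carries CAGTCACG.

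The S8 genes stood close together in the WT and far apart in HASX. At 1 h rps801 had 2124, 2151 and 2154 CPM and rps802 1912, 1909 and 1962 CPM in the WT. In HASX they had 573, 626 and 532 CPM and 106, 126 and 108 CPM. The share of rps801 was 52.6% ± 0.32 in the WT and 83.6% ± 0.67 in HASX at 1 h, and its log2 ratio to rps802 rose by 2.20 ± 0.08 at 1 h, 2.51 at 2 h and 1.71 at 4 h. In the starved WT at 4 h the ratio had risen by 0.30 (adjusted p = 0.00265). Both genes carry a HomolD match, at bases 49 and 54 before the start, and neither carries HomolE.

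The S15 genes moved in the same manner. In HASX at 1 h rps1501 had 268, 305 and 269 CPM and rps1502 50.9, 58.4 and 60.9 CPM, against 1507, 1462 and 1579 CPM and 1231, 1155 and 1247 CPM in the WT. The share of rps1501 rose from 54.9% ± 0.68 at WT 0 h to 67.3% ± 0.78 in the WT at 4 h. It was 83.2% ± 1.4, 85.7% ± 1.7 and 86.6% ± 1.3 in HASX. The log2 ratio rose by 0.75 in the starved WT and by 1.98, 2.20 and 1.66 in HASX. Here HomolE lies upstream of rps1501, with CAGTCACG beside it, and the exact HomolD upstream of rps1502.

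The S14 genes changed their order with time. The share of rps1401 was 25.3% ± 0.26 at WT 0 h, 31.7% ± 0.17 at 1 h, 32.7% ± 0.52 at 2 h and 46.4% ± 0.41 at 4 h. In HASX it was 65.2% ± 1.4 at 1 h, 58.3% ± 6 at 2 h and 39% ± 0.81 at 4 h. The ratio to rps1402 rose by 1.35 ± 0.11 in the starved WT, the largest change of any small subunit pair there, and by 2.01 in HASX at 1 h. At 4 h it was lower in HASX than in the WT, by -0.43 (adjusted p = 0.00125). The pair shares a stretch of 101 identical coding bases, so the split of its reads is among the less certain.

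In the S17 pair rps1701 was the higher gene in the WT, with a share of 69.1% ± 0.78 at 1 h, and the lower one in HASX at 1 h, with 41.6% ± 2. The ratio fell by 1.65 ± 0.11 at 1 h, 1.61 at 2 h and 0.80 at 4 h, and did not change beyond the test in the starved WT (-0.05, adjusted p = 0.802). In the S16 pair the share of rps1601 went from 75.5% ± 0.84 in the WT at 1 h to 61.4% ± 2.3 in HASX, and to 51.2% ± 1 by 4 h. The ratio to rps1602 fell by 0.95, 1.55 and 1.5 in HASX at 1, 2 and 4 h, and the WT 4 h change was 0.01 (adjusted p = 0.946).

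Other pairs kept their ratio more closely. The largest change over the 4 comparisons was 0.22 for rps401 and rps403, for S4, 0.33 for rps1801 and rps1802, for S18, and 0.35 for rps2401 and rps2402. In HASX at 1 h, rps401 had 208, 244 and 247 CPM and rps403 146, 171 and 174 CPM, so that rps401 supplied 58.7% ± 0.021 of the pair, against 60.5% ± 1.1 in the WT. The third S4 gene, rps402, moved apart from both later on: its share of the rps402 and rps403 total was 43.7% ± 1.1 in HASX at 1 h and 58.1% ± 2.4 at 4 h, against 40.2% ± 0.33 in the WT at 4 h. The rps401 and rps403 coding sequences share 95 bases in a row, and the effect of reads that fit both genes on their ratio was not tested.

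**Figure D5:**
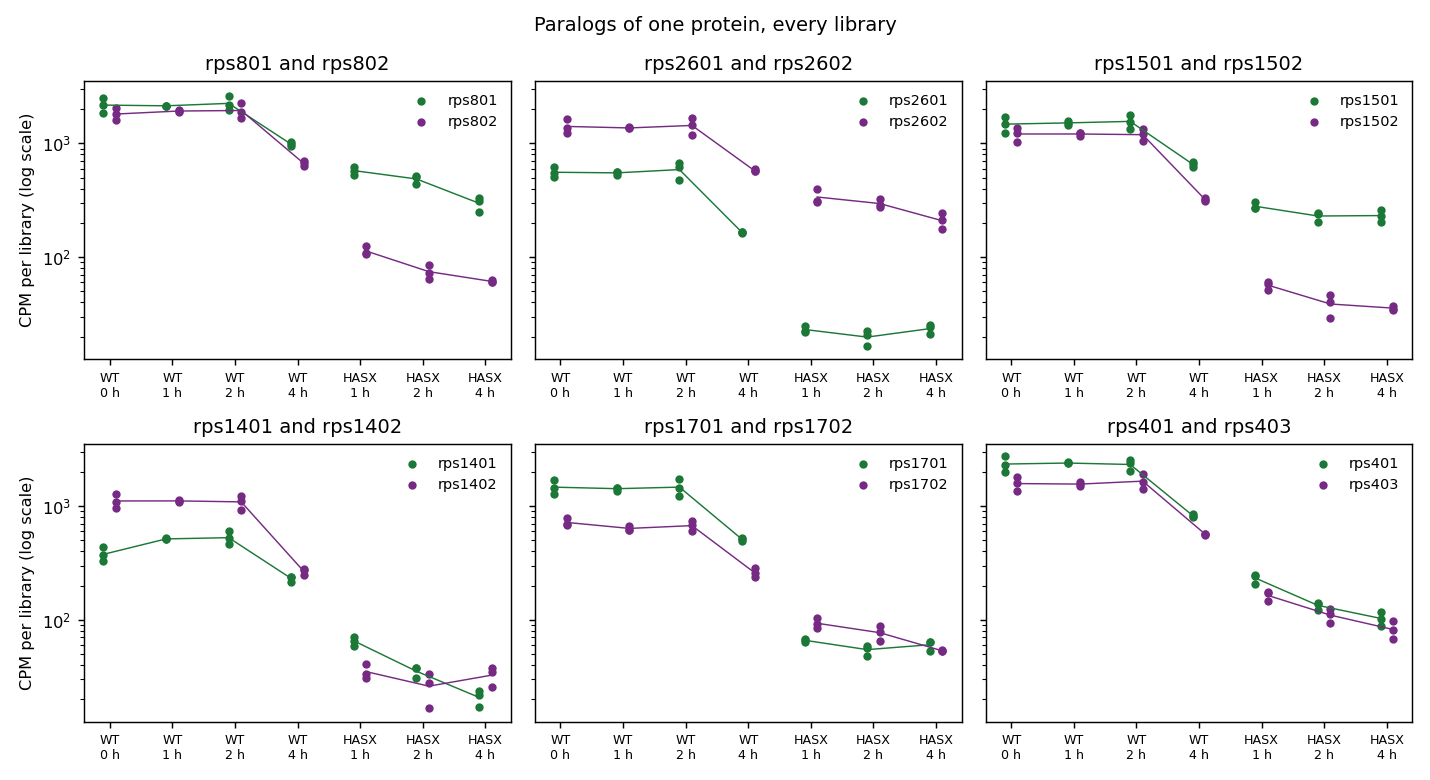
CPM (log axis) of both genes of 6 paralog pairs in every library (points), with lines joining the group means within a genotype. The S8, S26 and S15 genes part in HASX, the S14 and S17 genes change order, and rps401 and rps403 run side by side.

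The higher gene of a pair usually stayed the higher one. In 20, 19 and 20 of the 25 pairs the order at WT 0 h held in every HASX library at 1, 2 and 4 h, and in 3 pairs at each time it was reversed in every library. Without HASX 4 h replicate 3 the order held in 21 pairs at 4 h. At 1 h the reversed pairs were rps1401 and rps1402, rps1701 and rps1702, and rps2801 and rps2802, for S28. At 4 h they were rps2801 and rps2802 together with 2 of the 3 S4 pairs, as rps402 had become the highest of the S4 genes. The remaining pairs were mixed among replicates in HASX or at WT 0 h.

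Counted as exact matches, the elements shown above were not found in the same way in both genes of most pairs. HomolD stood upstream of only 1 gene in 19 of the 25 pairs. In HASX at 1 h that gene had fallen less than its paralog in 10 pairs and more in 9. Of the 21 small subunit genes with no exact HomolD, 10 carry CAGTCACG, which was not counted here. HomolE stood upstream of only 1 gene in 14 pairs, and that gene had fallen less in 10 and more in 4. Pairs of the S4 genes share members, and these counts are a description with no test.

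Around the small subunit genes, other 40S components moved the same way in part. The genes cpc2, for the RACK1 homologue that sits on the 40S head, and ubi3 and ubi5, which encode the S31 protein fused to ubiquitin, were all lower in the WT at 4 h (-1.48, -1.53 and -1.69). They were also lower in HASX at 1 h (-2.83, -1.19 and -2.28). Of 28 matched 40S assembly factors, 26 were lower and 1 higher in the WT at 4 h, with a median of -1, beside 25% and 26.5% of all genes. In HASX at 1 h 25 were lower and 2 higher (median -1.46), beside 37.8% and 36.4% of all genes. At 2 h 22 were lower and 3 higher (-0.81), beside 39.3% and 37.5%. At 4 h 12 were lower and 5 higher (-0.29), beside 37.3% and 38.3% of all genes, and 11 and 7 without HASX 4 h replicate 3. The share lower was near that of all genes, and the share higher was below it. The assembly factor pno1 was lower by 3.10 and utp4 by 2.61 on the log2 scale in HASX at 1 h. The 8 mitochondrial small subunit genes with an mrps symbol had a median of -0.69 in HASX at 1 h, with 6 lower, beside 37.8% of all genes. Genes for this subunit with other symbols were not included.

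Of 8 matched genes listed as regulators of ribosomal protein genes, 1 was higher and 4 lower in the WT at 4 h, beside 26.5% and 25% of all genes. In HASX at 1 h 3 were higher and 3 lower, near the 36.4% and 37.8% of all genes. The largest change was that of stb3, whose budding yeast counterpart binds promoters of ribosome biogenesis genes. Its mean rose from 44.5 ± 4.45 CPM at WT 0 h to 626 ± 14.1 at 4 h (log2 3.81), and it was 1137 ± 68 CPM in HASX at 1 h (4.50 above the WT). The gene sfp1, whose budding yeast counterpart activates ribosomal protein genes, was lower in HASX at 1 h (-1.07) and 2 h (-0.85). At 4 h its mean was 131 ± 25.1 CPM in HASX and 148 ± 3.68 in the WT. On the same list ifh1 had the higher mean in HASX, 136 ± 22.8 against 91.4 ± 5.23 CPM at 1 h. At 2 h it had 185 ± 11 against 73.2 ± 7.82 CPM, and fhl1 57.4 ± 1.6 against 33 ± 6.76 CPM. Of the 8, 4 were higher and 2 lower in HASX at 2 h, beside 37.5% and 39.3% of all genes. Of 10 genes of the TOR pathway and the S6 kinases, 6 were higher and 2 lower in HASX at 1 h, beside 36.4% and 37.8% of all genes. In that comparison tsc1, for an inhibitor of TOR signalling, was higher (1.35) and rhb1, for the small GTPase that activates it, lower (-1.24). The S6 kinase gene psk1 was higher in HASX by 1.3, 1.53 and 1.76 at 1, 2 and 4 h (1.88 at 4 h without HASX 4 h replicate 3).

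The ratio of summed small to summed large subunit CPM was lower in every HASX group mean than in the WT. It was 0.768 ± 0.0094, 0.779 ± 0.0064, 0.776 ± 0.00078 and 0.788 ± 0.0032 in the WT at 0, 1, 2 and 4 h, and 0.705 ± 0.0076, 0.709 ± 0.0057 and 0.727 ± 0.0055 in HASX at 1, 2 and 4 h (SD, n = 3). Outside genes with rps, rpl or rpp symbols, the 5 protein-coding genes whose log2 group means followed the sum most closely over the 7 groups were htr12, srm1, cpc2, rix1 and ubi1. Their Pearson r with the sum was 0.9986, 0.9983, 0.9969, 0.9964 and 0.9962. The gene srm1 encodes spermidine synthase and ubi1 a fusion of ubiquitin to the large subunit protein L40. The mean of srm1 went from 1025 CPM at WT 0 h to 435 in the WT at 4 h and 195 in HASX at 1 h. A Pearson r takes no account of the size of a change. Over the same groups htr12 went from 144 to 91.5 and 64.4 CPM, and rix1 from 99.5 to 71.3 and 54.4 CPM.

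In the authors' deposited tables of fold changes against WT 0 h, the medians over the 55 genes were 0, 0.03 and -1.44 for the WT at 1, 2 and 4 h and -2.89, -3.18 and -3.40 for HASX. The same ratios of group means computed here were 0, 0.02, -1.45, -2.95, -3.22 and -3.49. The largest difference for any gene was 0.06 or less except in HASX at 4 h, where it was 0.5.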

How the data were processed

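PolyA RNA libraries of 21 fission yeast cultures were given as gene counts. Per the submitters' processing notes, the authors used HISAT2 2.1.0, SAMtools, HTSeq 0.10.0 and DESeq2 with build ASM294v2, and the deposited tables hold raw counts per gene. The authors also deposited tables of log2 fold changes and p-values against WT 0 h, headed as DESeq2 output per the file headers.

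From the counts, edgeR 4.0.16 in R 4.3.3 removed 754 genes with low counts, left 6234, scaled by TMM and fitted a quasi-likelihood model with 1 mean for each of 7 groups (14 residual degrees of freedom). Paralog ratios were differences of log2 CPM (prior count 2), tested with limma 3.58.1 over 66 pairs. The large subunit list leaves out RNase P or MRP subunits with rpp symbols, and genes annotated as different proteins were not paired. P-values were adjusted by Benjamini-Hochberg. DESeq2 1.42.0 served as an alternative, beside other scaling, filters, fits of only the groups compared, a replicate block and each library left out. The procedures were tested on simulated data. In each comparison the 3 highest and 3 lowest members were named, with both S6 genes, the highest and lowest WT 0 h level per coding kb and the 6 most and 3 least divergent pairs. One member and its paralog pair entered all counts but are not reported by name here. Lists, ranges and the order of pairs without HASX 4 h replicate 3 were added after the data were seen. Members and lists were chosen with earlier results of these data known.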

Additional observations from a re-analysis of the deposited data

Results flagged for a closer look

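The change from 1 h to 4 h of starvation differed between HASX and the WT in the test of that difference by edgeR. The HASX change was called above the WT change for 46 of the 55 genes and below it for 1, beside 22.4% and 21.7% of all genes. The levels themselves were lower in HASX than in the WT for 53 of the 55 at 4 h. In raw shares of counts the change of the summed genes differed less between the genotypes than in CPM. Among the genes named, the HASX change minus the WT change was 1.96 for rps1402, 1.82 for rps3001 and 1.76 for rps2601. It was 1.29 for rps601 and 1.18 for rps602, both for S6. For rps1401 it was -0.50, and -0.34 without HASX 4 h replicate 3, where it was no longer called.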

How the results depend on the processing

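The calls of all 55 genes lower in the WT at 4 h and in HASX at 1 and 2 h, and of 53 lower and 1 higher in HASX at 4 h, were found under every alternative. Of 1512 recomputed values, 1398 kept their direction and side of the threshold or stayed within the limit set for a count. For the WT at 1 h, the number lower was 0 with DESeq2 size factors, with no low-count filter and with the replicate block. Leaving out 1 library gave 0 to 1 higher and 0 to 2 lower. For the WT at 2 h, the number higher was 2 by DESeq2 and 0 in a fit of only the groups compared. The number lower was 1 with size factors, with no filter, with the block and in the fit of only those groups. Leaving out 1 library gave 0 to 2 higher and 0 to 3 lower. Without WT 0 h replicate 1 there was no call in either direction at 1 or 2 h. From 1 h to 4 h in HASX, 1 gene rose in the fit of only those groups, and 1 to 2 rose with a library left out. For the difference between genotypes, the number lower was 0 with size factors and with the replicate block, and 0 to 1 with a library left out.

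With a library left out, the difference between genotypes ran from -0.19 to 0.00 for rps1201. In the WT at 4 h the ratio change ran from -0.21 to 0.09 for rps1701/rps1702, from 0.00 to 0.03 for rps1601/rps1602 and from -0.01 to 0.22 for rps2401/rps2402. None of these 4 was called with all libraries in, and the cause was not tested. DESeq2 size factors moved the median of all genes in HASX at 4 h to 0.13. Same-numbered libraries shared no deviation that would pair them in every number, so the block rests on numbers alone. Between WT 2 h and WT 0 h the deviations of numbers 1 and 3 were opposed, with correlations of -0.61 and -0.66, and that of number 2 was -0.02. The cause was not tested.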
